A study of Mus musculus with 32 samples.

Results

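A set of 10 transcription factors of mesenchymal and migrating cells was followed in muscle stem cells and interstitial cells during regeneration: the SNAIL factors Snai1 and Snai2, the TWIST factors Twist1 and Twist2, the homeobox factor Prrx1, the odd-skipped factors Osr1 and Osr2, and the SOX factors Sox4, Sox9 and Sox11. These 10 of the 55487 genes in the deposited tables were chosen by name, with earlier results of the same libraries known, Snai1 among them. Their response to brown fat was part of that choice, so it is given as a description, and nothing is read from the calls made in it. The tested comparisons of cell types and days are likewise no independent support for the choice. RNA sequencing had been carried out on 2 cell types sorted from the supraspinatus, a shoulder muscle, of adult male wild-type C57BL/6J mice, 12 weeks old. All muscles had been injured with cardiotoxin, a toxin of cobra venom under which muscle fibres degenerate. The BAT muscles then received a transplant of interscapular brown adipose tissue (BAT) of donors aged 3 weeks, and the control muscles of the same mice had the injury only. The cell types were fibro-adipogenic progenitors (FAPs), the mesenchymal interstitial cells of muscle (CD45-, CD31-, Sca1+, integrin alpha 7-), and satellite cells, the muscle stem cells (given in the labels as CD45-, CD31-, Sca1+, integrin alpha 7+). Each was collected at day 7 and at day 3 from 4 mice a day, which gave 8 groups of 4 libraries: FAPs and satellite cells, BAT and control, on each day. Each day had its own mice and its own deposited table, so a batch that goes with the day cannot be told apart from it, and no sham-operated or otherwise grafted muscle was analysed here.

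SNAIL proteins are zinc-finger repressors that bind DNA at E-boxes and silence epithelial genes such as E-cadherin. TWIST proteins are basic helix-loop-helix factors that act through E-boxes as well. PRRX1 and the OSR proteins mark mesenchyme of the embryonic limb, and Osr1 marks a developmental source of muscle interstitial cells in mice. SOX4 and SOX11 belong to the SOXC group, which acts in progenitors of many tissues, and SOX9 is the master regulator of cartilage.

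Library totals were 19.8 to 46.4 M expected counts (median 25.7 M), so that 3 counts, the limit below which a gene is not detectable here, correspond to 0.0647 to 0.152 CPM. CPM is the counts-per-million scale, computed from the library total. The sorted cells had the markers of their labels: Pdgfra, the FAP receptor, averaged 290 and 294 CPM in day 7 FAPs with BAT and control, against 1.83 and 2.96 CPM in the satellite cells. Pax7, the satellite cell factor, averaged 0.08 and 0.14 CPM in those FAPs against 97.3 and 122 CPM in the satellite cells. Ly6a, which encodes Sca1, was at 593 and 760 CPM in these FAPs and at 6.94 and 5.95 CPM in these satellite cells, although the labels give both populations as Sca1+. In 3 day 3 libraries macrophage markers stood apart: their 12 genes summed to 4149 CPM in the BAT FAPs of mouse 2b, 1673 CPM in the BAT satellite cells of mouse 2b and 1480 CPM in the control satellite cells of the mouse without a code, against 7.49 to 155.5 CPM in the other day 3 libraries. All 4 libraries of the day 7 mouse with code 5 held 163 to 355 CPM of Xist and none of the Y-linked Ddx3y, while the other 28 libraries held at most 0.161 CPM of Xist, so that mouse went against its male label. In bulk libraries such as these, fewer cells of a type and less RNA per cell cannot be told apart.

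**Figure D1:**
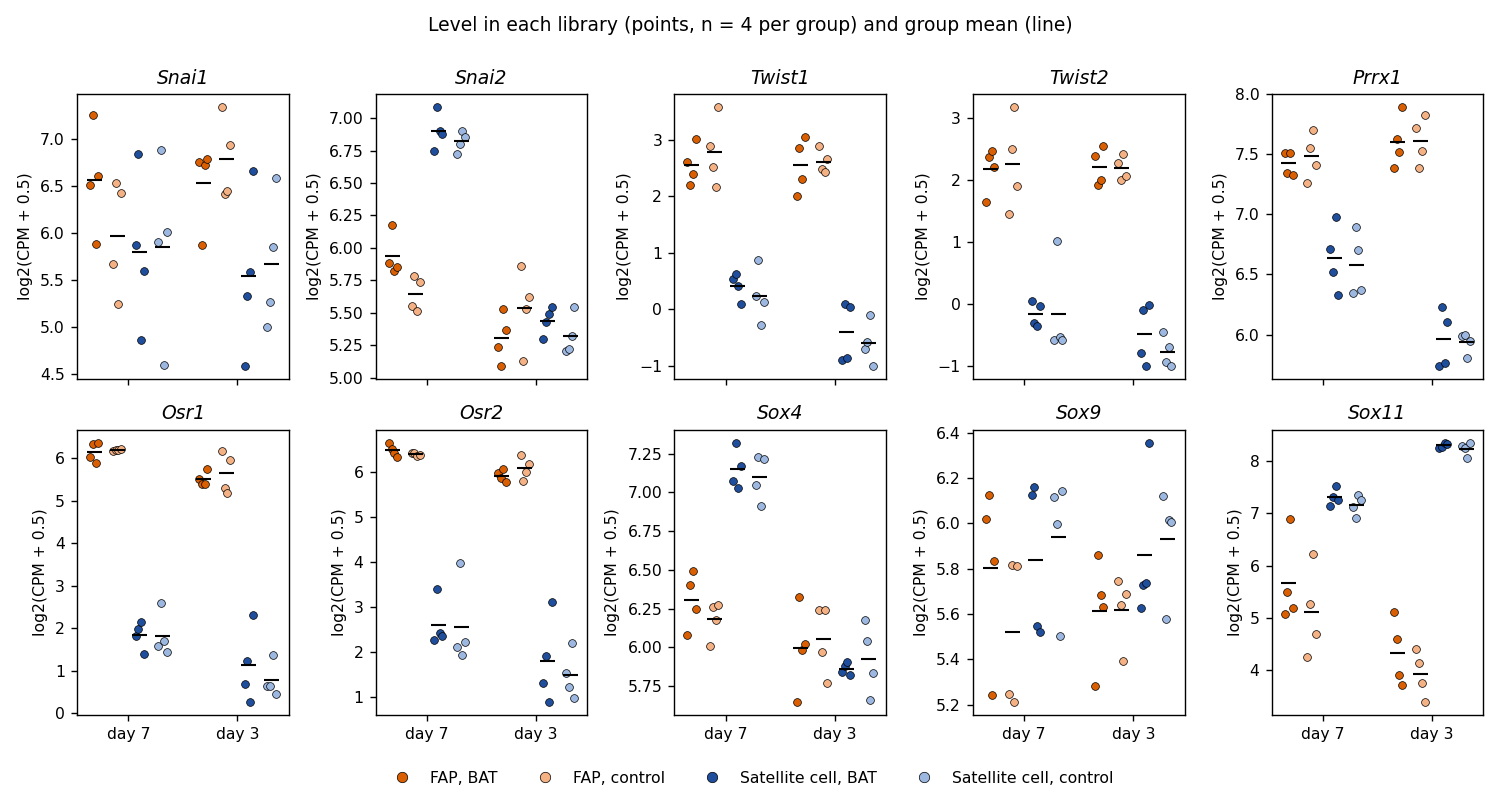
Level of each factor in the 32 libraries as log2(CPM + 0.5), with a point for each library and a line for the mean of each group of 4; FAPs stand left of satellite cells, BAT left of control and day 7 left of day 3. Twist1, Twist2, Prrx1, Osr1 and Osr2 form a separate upper band in FAPs, and Snai1 spreads widely within every group. Sox11 forms an upper band in satellite cells, well apart at day 3. At day 7 its lowest satellite cell library (119.5 CPM) lies just above its highest FAP library (118.4 CPM).

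In the mm10 build Snai1 lies at chr2:167538195-167542814 on the plus strand, Snai2 at chr16:14705852-14709385 on the plus strand and Twist1 at chr12:33957671-33959829 on the plus strand. Osr2 lies at chr15:35296098-35303305 and Sox9 at chr11:112782224-112787760, both on the plus strand, and Sox11 at chr12:27334264-27342574 on the minus strand. These 6 overlap no other annotated gene. Twist2 at chr1:91801461-91848028 on the plus strand, Prrx1 at chr1:163245119-163313710 on the minus strand, Osr1 at chr12:9570116-9581500 on the plus strand and Sox4 at chr13:28948919-28953713 on the minus strand each overlap at least 1 gene on the opposite strand. Whether strand was used in counting is not given in the sources used here, so the values of these 4 may hold reads of the partner.

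Scaled by exon length, Snai1 had the highest mean level of the 10 factors in each FAP group. In day 7 FAPs with BAT it averaged 61.4 ± 24.1 CPM per kilobase, followed by Osr1 at 34.5 ± 5.50, Snai2 at 30.2 ± 3.62, Osr2 at 24.8 ± 2.36, Sox4 at 16.5 ± 2.05, Prrx1 at 15.5 ± 1.09 and Sox9 at 13.7 ± 3.39 CPM per kilobase (SD, n = 4). Sox11 at 6.99 ± 4.88, Twist1 at 3.39 ± 0.945 and Twist2 at 1.30 ± 0.335 CPM per kilobase closed that order. The neighbours Osr1 and Snai2, Sox4 and Prrx1, Prrx1 and Sox9, and Sox11 and Twist1 were closer than their larger SD. So were Snai1 and Osr1 in day 7 control FAPs, at 40.75 ± 16.3 and 35.2 ± 0.360 CPM per kilobase. There Osr1 was the higher of the pair in mice 1b (34.9 against 31.0) and 5 (35.3 against 23.05). In day 7 satellite cells with BAT the order was led by Snai2 at 59.2 ± 5.88, Snai1 at 38.3 ± 22.5, Sox4 at 29.6 ± 2.71 and Sox11 at 19.1 ± 2.18 CPM per kilobase, and in day 3 satellite cells with BAT by Sox11 at 37.9 ± 1.28 and Snai1 at 32.6 ± 20.6 CPM per kilobase. The exon length is the union over all annotated transcripts, which for Prrx1 is 11066 bases against 1621 for Snai1, so the scaled level of Prrx1 is a low estimate.

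Snai1, the SNAIL family founder, was called higher in FAPs than in satellite cells of the same muscle in all 4 comparisons, least firmly in control muscle at day 7. In day 7 BAT muscle it had 97.0, 90.7, 152 and 58.3 CPM in the FAPs of mice 1a, 1b, 3 and 5, against 47.8, 58.0, 114 and 28.6 CPM in their satellite cells. Every mouse was higher in FAPs, although the ranges of the groups overlapped, and the log2 change was 1.22 ± 0.12 (SE; adjusted p = 0.000171, edgeR's quasi-likelihood test with Benjamini-Hochberg adjustment over all genes, as in every adjusted p below). Without the mouse block that adjusted p was 0.0583. In day 7 control muscle it had 85.2, 50.2, 91.5 and 37.4 CPM in FAPs, against 63.8, 59.2, 117 and 23.7 CPM in satellite cells. Only 2 of 4 mice were higher in FAPs by CPM, and the log2 change of 0.54 ± 0.18 (adjusted p = 0.0437) lost its call without mouse 1a, 1b or 5 (log2 changes of 0.36 to 0.66 over the 4 left-out mice) and without the block (0.42, adjusted p = 0.504).

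At day 3 Snai1 had 107, 58.0, 105 and 110 CPM in the BAT FAPs of mice 2b, 3a, 3b and the one without a code, against 100.5, 23.5, 39.8 and 47.3 CPM in the BAT satellite cells. The control FAPs had 161, 84.7, 86.5 and 122 CPM, against 95, 31.4, 38.0 and 57.2 CPM in the control satellite cells. All 8 pairs were higher in FAPs, with log2 changes of 1.19 ± 0.22 with BAT (adjusted p = 0.00299) and 1.23 ± 0.13 in control muscle (adjusted p = 0.000143). Leaving out the mice of the macrophage-rich libraries gave 1.45 with BAT and 1.25 in control muscle, both still called. Between the days Snai1 was not called in any of the 4 groups: the day 7 over day 3 change was 0.12 ± 0.31 in BAT FAPs, -0.68 ± 0.31 in control FAPs (adjusted p = 0.127), 0.01 ± 0.46 in BAT satellite cells and -0.05 ± 0.45 in control satellite cells.

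The promoter of Snai1 is shown because SNAIL proteins bind E-boxes, their own gene's among them. The 250 bases before its RefSeq start (GRCm38.p6, chr2:167537945-167538194, plus strand) hold a single E-box (CANNTG, which reads the same on both strands), in capitals, of the form CACCTG that SNAIL proteins prefer.
Snai1: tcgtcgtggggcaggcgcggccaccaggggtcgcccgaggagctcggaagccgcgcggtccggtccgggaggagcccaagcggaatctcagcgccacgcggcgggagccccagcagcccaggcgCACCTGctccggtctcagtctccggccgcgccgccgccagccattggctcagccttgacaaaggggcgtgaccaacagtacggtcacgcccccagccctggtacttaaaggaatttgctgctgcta
CANNTG occurs in 66.2% of 32851 mouse promoter windows of this length, and CACCTG or its complement CAGGTG in 17.2%. Windows were at hand for 6 of the 10 factors (Snai1, Twist1, Twist2, Prrx1, Sox4 and Sox11). Twist1, Twist2 and Prrx1 had no CANNTG in theirs.

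Snai2, which encodes SLUG, rose with time in satellite cells. It reached 117, 107, 135.5 and 119 CPM with BAT and 115.5, 105, 111 and 119 CPM in control muscle at day 7, against 46.2, 38.7, 42.6 and 44.4 CPM with BAT and 46.2, 36.4, 36.8 and 39.4 CPM in control muscle at day 3. The days did not overlap, and the log2 changes were 1.22 ± 0.14 with BAT (adjusted p = 7.68e-05) and 1.16 ± 0.11 in control muscle (adjusted p = 1.9e-05). In BAT FAPs it rose to 61.0 ± 7.31 CPM at day 7, against 39.3 ± 5.19 at day 3 (log2 change 0.67 ± 0.17, adjusted p = 0.0196). That call was lost without day 3 replicate 4 or 2 (values of 0.51 to 0.77 over the left-out libraries). In control FAPs it averaged 49.8 ± 4.60 CPM at day 7 and 46.6 ± 9.53 at day 3, a change of 0.18 ± 0.16 that was not called.

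Snai2 was lower in FAPs at day 7, at 61.0 ± 7.31 CPM against 120 ± 11.9 in satellite cells with BAT (log2 change -0.53 ± 0.11, adjusted p = 0.00545) and 49.8 ± 4.60 against 113 ± 5.98 in control muscle (-0.76 ± 0.13, adjusted p = 0.0026), in 8 of 8 pairs. At day 3 it was slightly higher in control FAPs (46.6 ± 9.53 CPM against 39.7 ± 4.53, log2 change 0.33 ± 0.08, adjusted p = 0.00809, 3 of 4 mice) and not called with BAT (39.3 ± 5.19 against 43.0 ± 3.19, log2 change 0.05 ± 0.11, adjusted p = 0.684). The levels in CPM and the log2 changes differ because the test rescales the libraries of the 2 cell types (TMM). Snai1 made up 65.7 ± 6.79% of the length-scaled SNAIL family level in day 7 BAT FAPs, against 37.1 ± 11.8% in the satellite cells, and 74.4 ± 4.44% at day 3, against 56.7 ± 12.4%.

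Twist1 and Twist2 were FAP transcripts of low level. In day 7 BAT muscle Twist1 had 7.63, 5.61, 4.08 and 4.77 CPM in FAPs, against 0.566, 0.959, 1.03 and 0.835 CPM in satellite cells, and Twist2 had 4.13, 2.61, 4.68 and 5.01 CPM, against 0.479, 0.529, 0.304 and 0.279 CPM. The cell types did not overlap in any of the 4 comparisons for either gene. Twist1 had log2 changes of 3.10 ± 0.34 with BAT and 3.67 ± 0.40 in control muscle at day 7 (adjusted p = 0.00025 and 0.000429), and of 4.38 ± 0.71 and 5.11 ± 0.57 at day 3 (adjusted p = 0.0018 and 0.000177). Twist2 had log2 changes of 3.77 ± 0.41 and 4.0 ± 0.60 at day 7 (adjusted p = 0.000256 and 0.00168), and of 4.29 ± 0.62 and 5.67 ± 0.64 at day 3 (adjusted p = 0.00108 and 0.000185).

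In day 3 satellite cells both TWIST genes were near the detection limit, so the size of the day 3 changes depends on the prior count of the fit. In the day 3 comparisons of cell types both passed the filter on low counts through their FAP libraries. Twist1 had 12, 1, 21 and 1 counts in the BAT satellite cells and 0, 3, 8 and 11 in the control satellite cells, and Twist2 had 11, 2, 16 and 0 counts and 0, 6, 1 and 3. No day change of either gene was called, though Twist1 in control satellite cells (1.65 ± 0.72, adjusted p = 0.0719) was called at 2.34 without the macrophage-rich library. Twist2 was too low to be tested across days in control satellite cells.

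Prrx1 was higher in FAPs in 16 of 16 pairs and did not overlap between the cell types. It averaged 172 ± 12.1 CPM in day 7 BAT FAPs, against 100.4 ± 19.6 in satellite cells (log2 change 1.23 ± 0.12, adjusted p = 0.000149), and 179 ± 23.2 in the control FAPs, against 96.4 ± 17.9 (1.33 ± 0.12, adjusted p = 0.000175). At day 3 it averaged 196 ± 30.3 CPM in BAT FAPs, against 62.4 ± 10.8 in satellite cells (1.84 ± 0.15, adjusted p = 0.00013), and 197 ± 26.9 in the control FAPs, against 60.7 ± 3.62 (1.81 ± 0.11, adjusted p = 1.08e-05). Satellite cells thus held 58.5% of the FAP mean with BAT and 53.7% in control muscle at day 7, and 31.8% and 30.9% at day 3. Snai1, by the same measure, stood at 62.3% and 99.7% at day 7 and at 55.6% and 48.8% at day 3.

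The odd-skipped factors had the largest contrast of the well-expressed genes. In day 7 BAT muscle Osr1 had 82.0, 64.4, 80.0 and 59.0 CPM in FAPs, against 2.13, 3.01, 3.46 and 3.94 CPM in satellite cells, and Osr2 had 80.7, 100.6, 91.8 and 86.0 CPM, against 4.62, 4.32, 10.1 and 4.89 CPM. Neither overlapped between the cell types on either day. Osr1 had log2 changes of 4.95 ± 0.23 with BAT and 4.98 ± 0.24 in control muscle at day 7 (adjusted p = 7.4e-06 and 3.04e-05), and of 4.86 ± 0.43 and 5.42 ± 0.23 at day 3 (adjusted p = 0.000165 and 3.44e-06). Osr2 had log2 changes of 4.42 ± 0.22 and 4.38 ± 0.37 at day 7 (adjusted p = 8.56e-06 and 0.000153), and of 4.49 ± 0.38 and 4.96 ± 0.26 at day 3 (adjusted p = 0.000145 and 6.82e-06). Without the mice of the macrophage-rich libraries the day 3 changes of Osr1 were 5.31 with BAT and 5.60 in control muscle, and those of Osr2 4.93 and 5.24.

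Between days, Osr1 rose in BAT FAPs to 71.4 ± 11.4 CPM at day 7, against 45.5 ± 5.76 at day 3 (log2 change 0.69 ± 0.16, adjusted p = 0.0141), and Osr2 to 89.8 ± 8.52, against 60.7 ± 5.34 (0.59 ± 0.14, adjusted p = 0.0176). The Osr1 call was lost without day 3 replicate 3 (lowest value 0.55), and the Osr2 call without day 3 replicate 4 or 2 or day 7 replicate 1 (lowest value 0.51). In control FAPs Osr1 had 72.8 ± 0.745 CPM at day 7 and 51.8 ± 17.2 at day 3, a change of 0.58 ± 0.19 that was not called by edgeR (adjusted p = 0.0538) and was called by DESeq2 and limma voom. In control satellite cells Osr1 was called higher at day 7 (3.25 ± 1.55 CPM against 1.27 ± 0.560, log2 change 1.03 ± 0.41, adjusted p = 0.0494). The call was lost without day 3 replicate 4, 1 or 2 or day 7 replicate 2 (values of 0.66 to 1.33), under limma voom and without a filter on low counts.

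The low levels of Osr1, Osr2, Twist1 and Twist2 in satellite cells stood beside traces of FAP markers there. In control muscle Osr1 was at 4.47% of its FAP mean at day 7 and 2.45% at day 3, Osr2 at 7.89% and 3.59%, Twist1 at 10.5% and 3.17%, and Twist2 at 10.7% and 2.25%. The 10 FAP markers were at a median of 1.34% (0.439 to 9.41%) at day 7 and 1.28% (0.671 to 6.42%) at day 3. Their sum was 745 to 1360 CPM with BAT and 757 to 1660 CPM without it at day 7, and 181 to 719 CPM and 204 to 512 CPM at day 3, with Clec3b at 0 in at least 1 day 7 BAT library, Dpp4 at 0 in at least 1 day 3 control library and the other 8 markers above 0 throughout. The day 3 satellite cell libraries with the highest Osr1 and Osr2 were the BAT library of mouse 2b (4.49 and 8.23 CPM) and the control library of the mouse without a code (2.10 and 4.12 CPM), which also had the highest FAP marker sums of their groups, 719 and 512 CPM. Both libraries were also macrophage-rich. Over the 8 satellite cell libraries of day 3, Osr1 and Osr2 had a Pearson correlation (log2) of 0.917 and 0.907 with the FAP marker sum. It was 0.916 and 0.934 with the macrophage sum and 0.298 and 0.299 with the pericyte sum. At day 7 the values were -0.0243 and 0.41, 0.324 and -0.103, and 0.878 and 0.865 in that order. The part of FAP, macrophage and pericyte RNA in the satellite cell values was not tested.

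Sox11 was the only factor called lower in FAPs than in satellite cells in BAT and control muscle on both days. In day 7 BAT muscle it had 36.0, 33.1, 44.7 and 118 CPM in FAPs, against 152.5, 141, 159 and 183.5 CPM in satellite cells, and in control muscle 25.4, 18.5, 37.9 and 74.0 CPM, against 152, 138, 119.5 and 163 CPM. At day 3 the BAT FAPs had 34.2, 23.6, 14.5 and 12.6 CPM, against 321.5, 303, 310 and 326 CPM in satellite cells, and the control FAPs 20.7, 17.1, 13.1 and 10.0 CPM, against 324, 312, 305 and 267 CPM. The cell types never overlapped. The log2 changes were -1.22 ± 0.24 with BAT and -1.65 ± 0.31 in control muscle at day 7 (adjusted p = 0.00471 and 0.00426), and -3.81 ± 0.29 and -4.24 ± 0.16 at day 3 (adjusted p = 0.000102 and 2.47e-06). Without the mouse block the day 7 BAT value was -1.01 (adjusted p = 0.0540).

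With time Sox11 fell in satellite cells, by 1.25 ± 0.14 on the log2 scale with BAT (adjusted p = 7.56e-05) and by 1.44 ± 0.13 in control muscle (adjusted p = 1.45e-05), and the days did not overlap. In FAPs it rose, by 1.49 ± 0.47 with BAT (adjusted p = 0.0453) and 1.43 ± 0.41 in control muscle (adjusted p = 0.03), with overlapping days. The FAP calls were weak: leaving out 1 library gave 0.87 to 1.82 with BAT and 0.94 to 1.67 in control muscle. With BAT the call was lost without day 3 replicate 4, 2 or 3 or day 7 replicate 1, 2 or 3, and in control muscle without day 3 replicate 4, 2 or 3 or day 7 replicate 2 or 3, and under limma voom. Mouse 5, the animal with Xist, had the highest Sox11 of its group in 4 of 4 libraries, and leaving it out gave the lowest FAP value of both comparisons. Its FAPs also had the highest sums of the 10 satellite cell markers, 986 CPM with BAT and 842 CPM in control muscle, against 212 to 639 CPM in the other day 7 FAPs and 203 to 419 CPM at day 3. Vcam1 made up 919 and 762 CPM of those sums. Pax7 was at 0.318 and 0.544 CPM in the FAPs of mouse 5 and at 1.2 CPM in the day 3 BAT FAPs of mouse 2b, and at 0 in the other 13 FAP libraries. The part of satellite cell RNA in the Sox11 values of FAPs was not tested. The promoter of Sox11 is shown as the counterpart of that of Snai1, since the pair led the length-scaled levels of day 3 satellite cells. Its 250 bases before the RefSeq start (GRCm38.p6, chr12:27342719-27342968, minus strand) hold E-boxes CAGCTG and CATATG, in capitals, and no CACCTG or CAGGTG.
Sox11: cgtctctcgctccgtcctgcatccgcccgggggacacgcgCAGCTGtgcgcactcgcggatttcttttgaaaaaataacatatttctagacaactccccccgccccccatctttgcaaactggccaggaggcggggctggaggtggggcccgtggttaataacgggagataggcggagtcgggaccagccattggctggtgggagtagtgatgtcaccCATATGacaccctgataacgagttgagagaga

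Sox4, the SOXC partner of Sox11, went the opposite way in satellite cells. It rose there to 144, 134, 159 and 130.0 CPM with BAT and 148, 132, 149 and 119.9 CPM in control muscle at day 7, against 55.9, 56.7, 58.3 and 59.3 CPM with BAT and 56.6, 71.8, 65.2 and 49.9 CPM in control muscle at day 3. The days did not overlap, and the log2 changes were 1.04 ± 0.13 (adjusted p = 0.000155) and 0.81 ± 0.16 (adjusted p = 0.00186). In FAPs no day change of Sox4 was called. At day 7 Sox4 was lower in FAPs, without overlap, at 79.0 ± 9.82 CPM against 142 ± 13.0 in satellite cells with BAT (log2 change -0.41 ± 0.12, adjusted p = 0.0216) and 72.2 ± 5.97 against 137 ± 14.2 in control muscle (-0.51 ± 0.12, adjusted p = 0.0109). The BAT call was lost without mouse 1a, 1b or 3 and without the block (-0.40, adjusted p = 0.0924), and the control call without mouse 1a or 1b. At day 3 Sox4 was called slightly higher in FAPs with BAT (0.32 ± 0.12, adjusted p = 0.0434), which was lost without mouse 3a, 3b or the one without a code, under RLE scaling, without a filter and without the block, and was not called in control muscle (0.24 ± 0.10, adjusted p = 0.0517). Sox4 made up 60.7 ± 3.80% of the length-scaled SOXC level of the pair in day 7 BAT satellite cells, against 24.1 ± 0.657% at day 3, and 62.4 ± 5.07% in the control satellite cells, against 25.8 ± 2.41%.

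Sox9 was the flattest of the 10. Its group means lay between 46.4 ± 10.8 CPM in day 7 control FAPs and 61.8 ± 11.7 CPM in day 7 control satellite cells, and all groups overlapped. It was called higher in day 7 BAT FAPs than in the satellite cells (56.9 ± 14.0 CPM against 58.0 ± 14.0, log2 change 0.41 ± 0.13 after TMM, adjusted p = 0.0316) and lower in day 3 control FAPs (48.8 ± 5.08 CPM against 61.0 ± 9.53, -0.20 ± 0.07, adjusted p = 0.0444). In plain CPM only 1 of 4 mice was higher in the day 7 BAT FAPs. The first call was lost without mouse 1a, 1b or 3 (values of 0.31 to 0.51) and without the block (0.43, adjusted p = 0.203). The second was lost without mouse 2b, 3a or the one without a code (-0.25 to -0.17). It was also lost under RLE scaling, without a filter on low counts and without the block. No day change of Sox9 was called in any group.

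**Figure D2:**
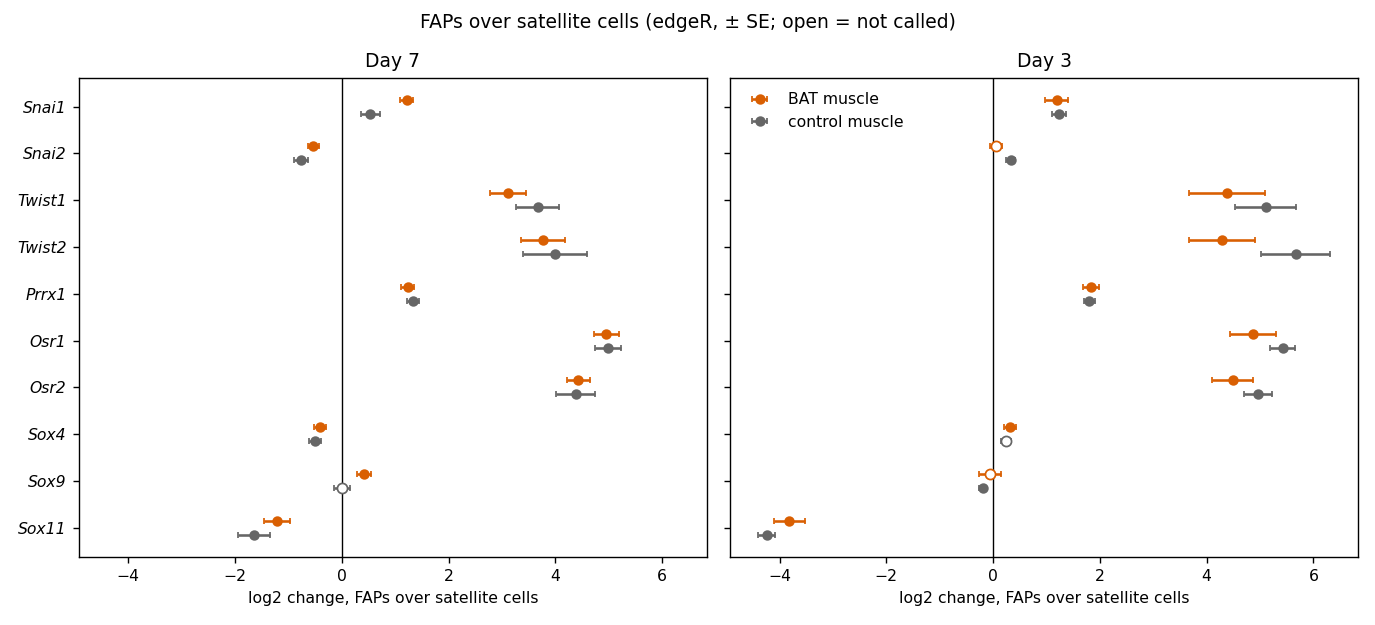
Log2 change of FAPs over satellite cells (edgeR estimate ± SE, 4 mice) for each factor at day 7 (left) and day 3 (right), with BAT muscle above control muscle; open points were not called. Osr1, Osr2, Twist1 and Twist2 lie between 3.10 and 5.67, Prrx1 and Snai1 between 0.54 and 1.84, and Sox11 between -4.24 and -1.22.

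Counted together, 7 factors were higher and 3 lower in FAPs of the 10 tested in day 7 BAT muscle, where 49.9% of all 16624 genes tested were called in either direction. In day 7 control muscle 6 were higher and 3 lower, beside 45.1% of all genes. In day 3 BAT muscle 7 were higher and 1 lower, beside 66.5%, and in day 3 control muscle 7 were higher and 2 lower, beside 71.7%. The members' median log2 changes were 1.23, 0.93, 1.52 and 1.52 in those comparisons, beside -0.03, -0.05, 0.04 and -0.03 over all genes tested. The 8 and 9 calls of day 3 thus stand beside a high background. Twist1 and Twist2 were among the higher factors in each of these comparisons. In day 3 satellite cells alone both were too low to be tested, as was Twist2 at day 7. There they passed the filter through their FAP libraries, so those calls add no support to the counts or medians. Without the mouse block 6 of 10 were called in day 7 BAT muscle.

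Between days, 4 of 10 factors were called in BAT FAPs, all higher at day 7 (Snai2, Osr1, Osr2 and Sox11), beside 22.9% of all genes, and 1 of 10 in control FAPs (Sox11), beside 23%. Leaving out 1 library gave 1 to 4 and 0 to 2 calls. In satellite cells 2 rose and 1 fell of 10 with BAT, beside 52.9% of all genes, and 3 rose and 1 fell of 9 tested in control muscle, beside 59.4%. Beside the rise of Snai2 and Sox4, all 8 pericyte and smooth muscle markers and 7 of 8 Schwann cell markers were called higher in satellite cells at day 7, in BAT and in control muscle. The pericyte sum was 2087 to 3145 CPM with BAT and 1938 to 3839 CPM without it at day 7, against 178 to 384 CPM and 206 to 316 CPM at day 3. The Schwann sum was 165 to 575 CPM and 198 to 863 CPM at day 7, against 62.2 to 103 CPM and 67.1 to 108 CPM at day 3. Of the endothelial markers 4 of 7 tested with BAT and 4 of 6 in control muscle were called higher at day 7, and of the tenocyte markers 0 of 7 and 5 of 7. The satellite cell markers rose as well, with 6 of 10 called higher and 1 lower both with BAT and in control muscle (medians 1.43 and 1.41). Their sum averaged 3722 CPM with BAT and 4219 CPM without it at day 7, against 2327 and 2347 CPM at day 3. Of the FAP markers 1 of 9 tested with BAT and 2 of 10 in control muscle were called higher. Of the macrophage markers 6 of 8 and 7 of 8 were called lower (medians -4.81 and -4.56). The part of all these markers in the changes of Snai2, Sox4 and Sox11 was not tested.

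**Figure D3:**
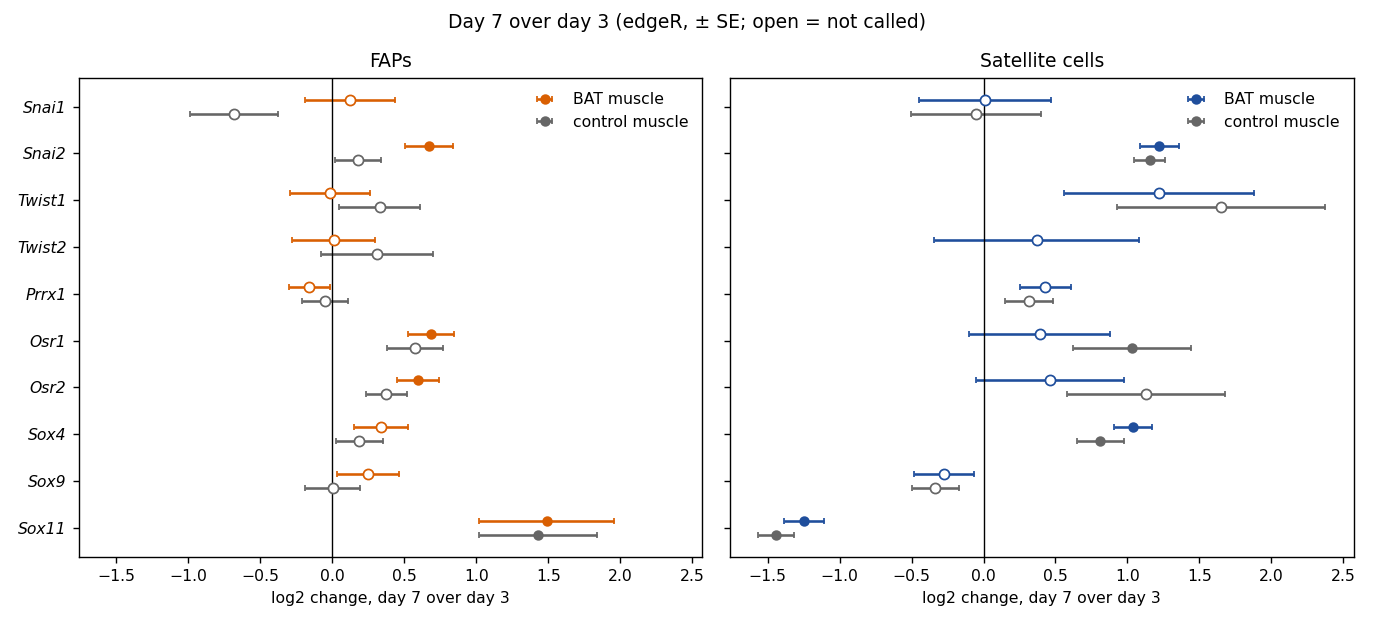
Log2 change of day 7 over day 3 (edgeR estimate ± SE, 4 libraries a day) for each factor in FAPs (left) and satellite cells (right), BAT muscle above control muscle; open points were not called and Twist2 was not tested in control satellite cells. Sox11 lies at 1.49 and 1.43 in FAPs and at -1.25 and -1.44 in satellite cells, while Snai2 and Sox4 rise by 0.81 to 1.22 in satellite cells.

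Whether the change with time differed between the cell types was tested as an interaction, added after the data had been seen, with the mouse as a block. The day 7 over day 3 change of Sox11 was higher in FAPs than in satellite cells by 2.67 ± 0.41 on the log2 scale with BAT (adjusted p = 0.00285) and 2.57 ± 0.39 in control muscle (adjusted p = 0.00173). That of Snai2 was lower in FAPs, at -0.51 ± 0.14 with BAT (adjusted p = 0.0341) and -1.11 ± 0.14 in control muscle (adjusted p = 0.000666), and that of Sox4 at -0.66 ± 0.16 (adjusted p = 0.0215) and -0.77 ± 0.15 (adjusted p = 0.00645). Prrx1 had -0.54 ± 0.20 with BAT, which was not called (adjusted p = 0.0972), and -0.50 ± 0.15 in control muscle (adjusted p = 0.0377), which lost its call without any 1 of the 8 mice, under DESeq2 and RLE scaling, without a filter and without the block. These were 3 of 10 factors with BAT, beside 17.9% of all genes, and 4 of 10 in control muscle, beside 23.8%. With BAT, leaving out 1 mouse gave 1 to 3 calls. Sox4 lost its call without mouse 3a, 3b, the one without a code or 1b, and Snai2 without any mouse but 2b and 3, and both without the block. Snai2 also lost its call without a filter (-0.45, adjusted p = 0.146). Snai1 had 0.10 ± 0.27 with BAT (adjusted p = 0.844) and -0.72 ± 0.24 in control muscle (adjusted p = 0.0545). The control value was called by limma voom (-0.75, adjusted p = 0.0313), without a filter (-0.72, adjusted p = 0.0430) and without mouse 5 (-0.87, adjusted p = 0.0190). The median of all genes was -0.04 with BAT and -0.12 in control muscle.

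Snai1 levels were ordered by animal across cell types and muscles. At day 7 mouse 3 had the highest Snai1 of its group in 4 of 4 libraries and mouse 5 the lowest in 4 of 4, with 91.5 to 152 CPM in mouse 3 and 23.7 to 58.3 CPM in mouse 5. Mouse 5 is the animal with Xist, and mouse 3 alone of the day 7 mice has labels with an added suffix. The animal cannot be told apart from any handling that went with it. At day 3 mouse 3a had the lowest in 4 of 4 libraries (23.5 to 84.7 CPM) and mouse 2b the highest in 3 of 4 (95 to 161 CPM). The highest library of a group was 1.89 to 2.61 times the lowest in the 4 FAP groups and 3.02 to 4.92 times in the 4 satellite cell groups. Mouse 2b at day 3 also gave the macrophage-rich BAT libraries. Its control libraries, with 161 CPM of Snai1 in FAPs and 95 CPM in satellite cells, held macrophage sums of 19.0 and 7.49 CPM. The part of macrophages in the Snai1 levels was not tested.

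**Figure D4:**
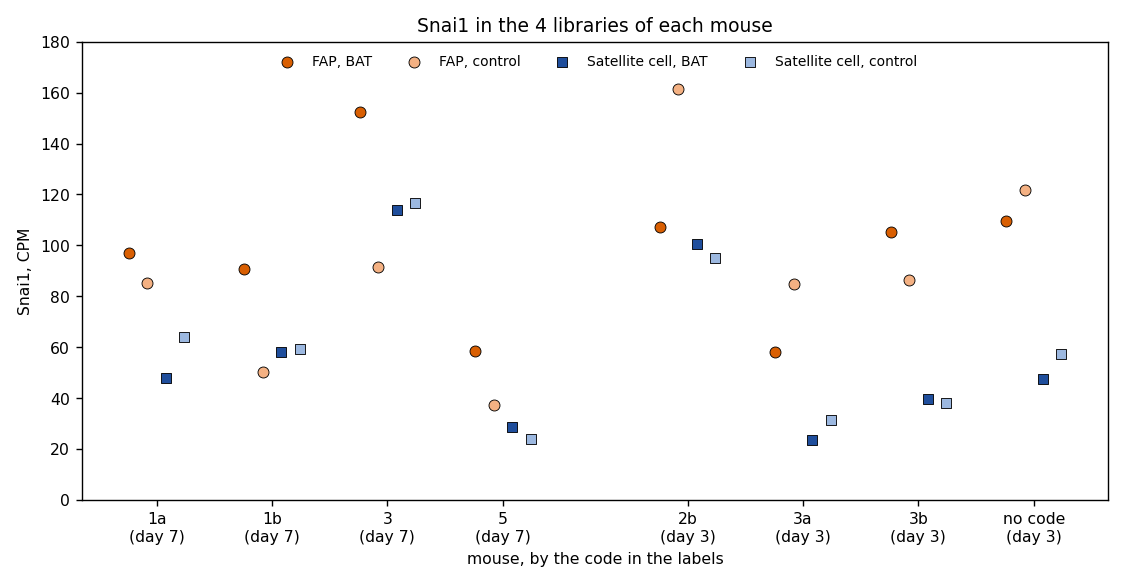
Snai1 in CPM in the 4 libraries of each mouse, day 7 mice left of day 3 mice; circles are FAPs and squares satellite cells, dark BAT and light control. Mouse 3 at day 7 lies at 91.5 to 152 CPM and mouse 5 at 23.7 to 58.3 CPM in all 4 libraries.

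The comparison of BAT with control muscle asked whether grafted brown fat changed these factors in regenerating muscle, and the values follow as a description. Snai1 in day 7 FAPs was higher with BAT in 4 of 4 mice: 97.0 CPM with BAT against 85.2 in control muscle in mouse 1a, 90.7 against 50.2 in mouse 1b, 152 against 91.5 in mouse 3 and 58.3 against 37.4 in mouse 5. The groups overlapped, and the log2 change of BAT over control was 0.62 ± 0.12 (SE). Other cell markers moved in the same libraries. The fitted changes of all 10 FAP, all 7 tenocyte and all 8 endothelial markers were below 0 (medians -0.28, -0.41 and -0.25), although none was called. The sum of each of these lists was lower with BAT in 4 of 4 mice. The pericyte sum was higher with BAT in 4 of 4 mice. The part of these markers in the Snai1 difference was not tested. In day 3 FAPs Snai1 was lower with BAT in 3 of 4 mice: 107 CPM against 161 in mouse 2b, 58.0 against 84.7 in mouse 3a and 110 against 122 in the mouse without a code, but 105 against 86.5 in mouse 3b, with a log2 change of -0.22 ± 0.15 (-0.13 without mouse 2b, whose BAT library was macrophage-rich). In satellite cells the changes were -0.04 ± 0.13 at day 7 and -0.13 ± 0.10 at day 3, with 1 and 2 of 4 mice higher with BAT.

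Sox11 was higher with BAT in FAPs of all 8 mice. In day 7 FAPs it had 36.0, 33.1, 44.7 and 118 CPM with BAT, against 25.4, 18.5, 37.9 and 74.0 CPM in control muscle, a log2 change of 0.58 ± 0.11, and at day 3 34.2, 23.6, 14.5 and 12.6 CPM with BAT, against 20.7, 17.1, 13.1 and 10.0 CPM, a change of 0.45 ± 0.15. Without mouse 2b, whose BAT FAP library was macrophage-rich, the day 3 change was 0.33. Both days overlapped between BAT and control. The sum of the 10 satellite cell markers in the same FAP libraries was higher with BAT in all 4 day 7 mice and in 3 of 4 day 3 mice. Without Vcam1, which made up most of that sum, it was 24.3, 24.6, 29.5 and 67.3 CPM with BAT against 16.6, 27.4, 22.6 and 79.3 CPM in control muscle in day 7 mice 1a, 1b, 3 and 5. At day 3 it was 168, 19.97, 28.9 and 29.2 CPM with BAT against 33.2, 22.5, 26.0 and 26.6 CPM in control muscle in mice 2b, 3a, 3b and the one without a code. It was thus higher with BAT in 2 of 4 and 3 of 4 mice, and its part in the Sox11 difference was not tested. The FAP marker sum was lower with BAT in 4 of 4 FAP pairs on each day. The macrophage sum was higher in 4 of 4 at day 3 and in 1 of 4 at day 7. Over the 8 FAP libraries of a day, Sox11 had a Pearson correlation (log2) with the FAP marker sum of -0.958 at day 7 and -0.57 at day 3. The part of these markers was not tested either. Snai2 in day 7 FAPs was higher with BAT in 4 of 4 mice, with 57.3, 58.6, 71.8 and 56.2 CPM with BAT against 52.9, 46.4, 54.5 and 45.3 CPM in control muscle (log2 change 0.31 ± 0.09). Sox9 in day 7 FAPs was higher with BAT in 4 of 4 mice (0.30 ± 0.13), by 0.02 to 0.77 on the log2(CPM + 0.5) scale. The other factors in FAPs had changes between -0.25 (Twist1, day 7) and 0.14 (Sox4, day 7), with mice on both sides. In day 7 satellite cells Snai2 and Sox11 were also higher with BAT in 4 of 4 mice, with mean within-mouse differences of 0.08 and 0.15. In satellite cells the fitted changes lay between -0.13 (Snai1, day 3) and 0.46 (Osr1, day 3, SE 0.61), and the within-mouse differences of Osr1 and Osr2 at day 3 ran from -1.31 to 2.15.

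None of the factors was called in any of the 4 comparisons with edgeR, beside 0% of all genes called in day 7 FAPs, 0.0188% in day 3 FAPs, 0.0178% in day 7 satellite cells and 0% in day 3 satellite cells. At an unadjusted p under 0.05 the counts were 4 of 10, 1 of 10, 0 of 9 and 0 of 8 factors tested, beside 4.89%, 4.58%, 7.48% and 3.02% of all genes. In day 7 FAPs DESeq2 called Snai1 and Sox11, beside 0.144% of all genes. Without a filter on low counts edgeR called the same pair, beside 0.481%. Limma voom called none of the factors there, and none of these settings called a factor in the other 3 comparisons. The BAT effect on Snai1 in FAPs minus that in satellite cells was 0.67 ± 0.18 at day 7 and -0.07 ± 0.20 at day 3 (log2 ± SE), and the effect at day 7 minus that at day 3 was 0.85 ± 0.20 in FAPs and 0.08 ± 0.16 in satellite cells. No factor was called in these differences by edgeR, DESeq2 or limma voom, while edgeR without a filter on low counts called Snai1 at day 7, beside 0.549% of all genes, and in FAPs, beside 0.257%. The edgeR counts stood beside 0% of all genes at day 7, 0.0229% at day 3, 0% in FAPs and 0% in satellite cells, and there were 2, 1, 2 and 0 factors at an unadjusted p under 0.05, beside 6.68%, 3.16%, 3.36% and 5.12% of all genes. Because the factors were chosen with these effects known, nothing is read from these counts.

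**Figure D5:**
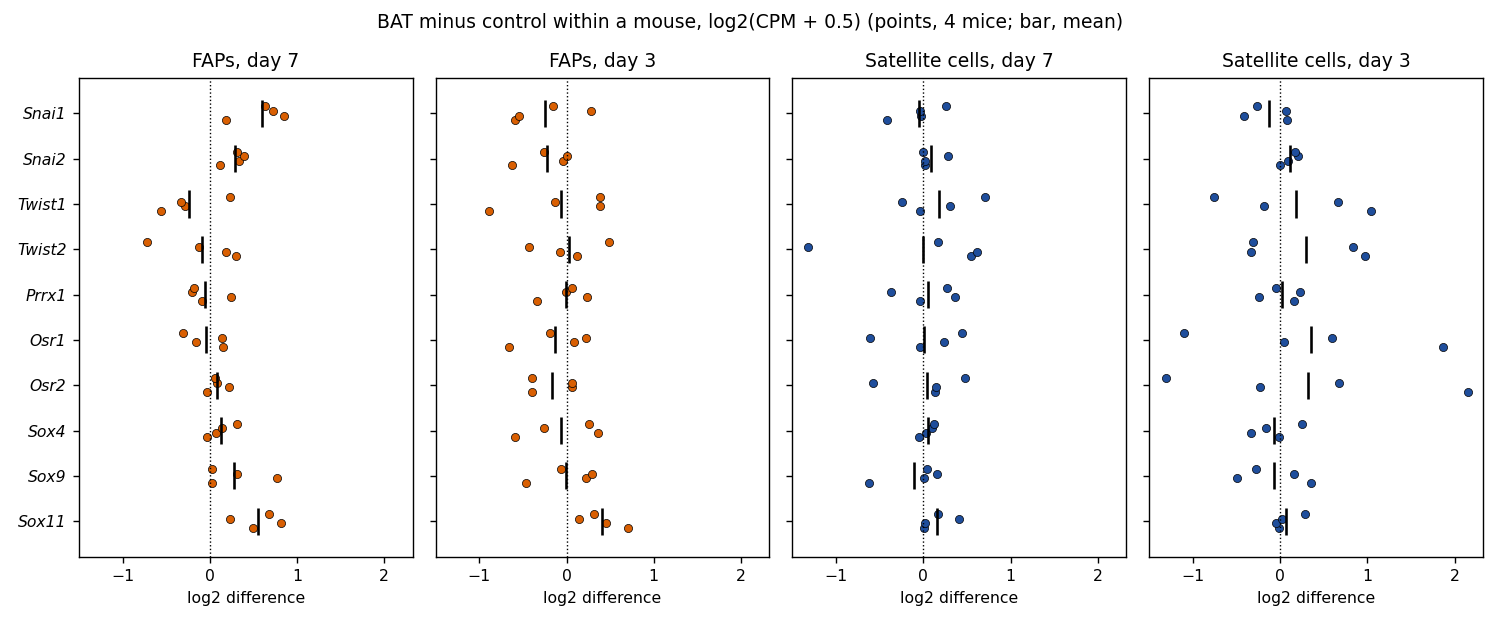
Difference of BAT minus control within each mouse in log2(CPM + 0.5), with a point for each of 4 mice and a bar for their mean, by cell type and day. In day 7 FAPs all 4 points of Snai1, Snai2, Sox9 and Sox11 lie above 0, in day 3 FAPs those of Sox11, and in day 7 satellite cells those of Snai2 and Sox11, closer to 0.

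Genes that work with these factors were read from lists. In control FAPs against satellite cells, 45.1% of all genes tested were called at day 7 and 71.7% at day 3, in either direction. The counts below stand beside these shares. Of 22 other factors of epithelial-mesenchymal transition and limb mesenchyme, 8 were called higher and 5 lower in control FAPs of 17 tested at day 7, and 9 and 6 of 17 at day 3, with medians of 0.13 and 0.45. Meox1, Tbx18 and Meox2, homeobox and T-box factors of mesenchyme, led on both days, with log2 changes of 3.99 ± 0.33, 3.27 ± 0.33 and 3.04 ± 0.25 at day 7 and 7.38 ± 0.74, 6.57 ± 0.74 and 6.07 ± 0.40 at day 3. All 17 mesenchymal genes that SNAIL and TWIST are known to accompany were tested: 14 were higher and 3 lower at day 7 (median 1.98), and 16 higher and 1 lower at day 3 (median 4.16). Postn, the matrix protein periostin, had 3.56 ± 0.25 at day 7 and 6.82 ± 0.63 at day 3, and Mmp2, a matrix protease, 3.56 ± 0.30 and 5.91 ± 0.49. Of 20 epithelial genes that SNAIL represses, 9 were high enough to test in control muscle, of which 2 were higher and 4 lower in FAPs at day 7, and 1 and 5 at day 3. The keratin Krt8 was under the detection limit of 3 counts in control FAPs, at 0 to 0.0328 CPM at day 7 and 0 to 0.0743 CPM at day 3, against 0.742 to 1.19 CPM and 40.8 to 107 CPM in control satellite cells. E-cadherin itself, Cdh1, averaged 0.05 and 0.07 CPM in day 7 FAPs with BAT and control, against 1.30 and 2.22 CPM in satellite cells.

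Of 10 other SOX factors, 2 were higher and 4 lower in control FAPs of 8 tested at day 7, and 2 and 3 of 7 at day 3. Of all genes, 45.1% and 71.7% were called there in either direction, which also stand beside the cartilage counts that follow. Sox10, the Schwann cell factor, was at 0 to 0.0907 CPM in control FAPs at day 7, against 0.922 to 10.8 CPM in satellite cells, and Sox8 had a log2 change of -4.58 ± 0.22. Of 12 cartilage genes that SOX9 activates, 5 were higher and 1 lower in control FAPs of 8 tested at day 7, and 4 and 0 of 5 at day 3, although Sox9 itself was nearly level. Comp, which is also a tendon gene, had 5.26 ± 0.47 at day 7 and 4.74 ± 0.63 at day 3. Between days 7 of 8 of these genes tested rose in BAT FAPs and 5 of 6 in control FAPs. Of all genes, 22.9% and 23% were called in these day comparisons, in either direction. The tenocyte marker sum in FAPs was 669 to 3974 CPM with BAT and 1057 to 6854 CPM in control muscle at day 7, against 873 to 1370 CPM and 1037 to 1672 CPM at day 3, and the part of tendon cells was not tested.

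Of 20 signals and receptors of the TGF-beta, WNT and NOTCH kind that induce these factors, 13 were higher and 2 lower in control FAPs at day 7 (median 1.08), and 17 and 2 at day 3 (median 1.77). Wnt5a, a WNT ligand, had 3.48 ± 0.49 and 5.92 ± 0.40, and Met, the hepatocyte growth factor receptor, -3.20 ± 0.21 and -5.77 ± 0.18. Of 14 partners of SNAIL, none was higher and 2 were lower in control FAPs at day 7, and 3 and 6 at day 3. The counts of both lists stand beside 45.1% of all genes called in either direction at day 7 and 71.7% at day 3. Ajuba, a LIM protein that works with SNAIL in repression, was lower on both days, with -1.55 ± 0.29 and -1.63 ± 0.32. No gene of these 7 lists was called in any comparison of BAT with control muscle.

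Over the 32 libraries the genes most like 9 of the factors, by Pearson correlation of log2(CPM + 0.5) among 14537 genes with a mean of at least 1 CPM, were taken as a description. The libraries share mice and split into 2 cell types, which sets much of these values. For Snai1 they were Ncln (0.879), Rhog, Bcl9l, Furin and Aacs (0.827), and over the 16 within-mouse differences of BAT and control Supt3 (0.891), Snrpa, Fam83d, Zbtb7c and Efnb1. Snai2 and Sox4 had the same nearest gene, Shisa4, at 0.952 and 0.948. Sox11 was nearest to Epha2 (0.964), Osr1 to C1qtnf7 (0.988), Osr2 to Hoxb5 (0.988), Prrx1 to Slc39a1 (0.977), Twist1 to Kctd12 (0.983) and Twist2 to Ptgfr (0.976).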

How the data were processed

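Per the labels' protocols, total RNA of sorted cells was made into libraries with a low-input cDNA kit. The authors deposited a table of expected counts for each day, without normalisation. Per the submitters' processing notes, DRAGEN and mm10 were used; the sources used here give no version, annotation, multi-mapping rule or use of strand. Of 55774 entries, 287 exact repeats were removed, and 71.778% of the values above 0 were whole with no tolerance. Coordinates and exon lengths are from the mm10 annotation, promoters from RefSeq.

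The members and lists were chosen with earlier results of these data known. All 10 members are named; from other lists, those called with the 4 largest changes could be. CPM were computed from column totals. Expected counts were rounded and tested with edgeR 4.0.16 (R 4.3.3; quasi-likelihood F test, TMM, filterByExpr with minimum count 10 and total 15), each fit on the whole table of its groups with a call at an adjusted p (Benjamini-Hochberg) under 0.05. The SE was taken from the change and F (absolute change divided by the root of F). The series text says that paired samples are from the same mouse, so the mouse was a block except between days. Same-mouse BAT and control deviations correlated at a mean of 0.559 (0.433 to 0.721) in day 7 FAPs, 0.145 (-0.0549 to 0.297) in day 3 FAPs, 0.414 (0.161 to 0.570) in day 7 satellite cells and -0.0138 (-0.385 to 0.413) in day 3 satellite cells. The day 3 mouse without a code in its labels was inferred by elimination. The libraries within a group are of separate mice, and counts of these replicates differed beyond sampling noise (chi-square at least 17.1 per degree of freedom). Alternatives were DESeq2 1.42.0, limma 3.58.1 voom, RLE scaling, no filter, no block, each mouse or library left out, and leaving out mice with macrophage-rich libraries (over 20 times the median marker sum). The fits were tested on simulated data.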

Additional observations from a re-analysis of the deposited data

Results flagged for a closer look

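In 9 of the 80 groups of 4 libraries (10 factors, 8 groups) a single library stood far from the other 3, where chance gives about 1 in 20. Of these, 5 belonged to day 7 mouse 3: it was the highest for Osr1 at 5.55 CPM, Osr2 at 15.3 CPM and Twist2 at 1.52 CPM in control satellite cells, for Osr2 at 10.1 CPM in BAT satellite cells and for Snai2 at 71.8 CPM in BAT FAPs. Mouse 5 was the highest for Sox11 in day 7 BAT FAPs at 118 CPM. At day 3 the mouse without a code was the highest for Osr1 in control satellite cells at 2.10 CPM and mouse 2b for Sox9 in BAT satellite cells at 81.3 CPM, both in macrophage-rich libraries. Mouse 3a was the lowest for Snai1 in day 3 BAT FAPs at 58.0 CPM.

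The difference of day 7 minus day 3 was called unequal in FAPs and satellite cells by the interaction test, which was added after the data had been seen. In BAT muscle the difference (FAPs minus satellite cells, log2) was 2.67 for Sox11, -0.51 for Snai2 and -0.66 for Sox4. In control muscle it was 2.57 for Sox11, -1.11 for Snai2, -0.77 for Sox4 and -0.50 for Prrx1. With 1 mouse left out, the Prrx1 call was lost in 8 of 8 fits. In BAT muscle the Snai2 call was lost in 6 of 8 such fits and the Sox4 call in 4 of 8.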

How the results depend on the processing

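The number of factors called kept within 1.5 times of its value under limma voom, RLE scaling and the removal of macrophage-rich libraries in each comparison run. An equal number could hide a change of factor. For the days in control FAPs the 1 call was Sox11 with edgeR and Osr1 with limma voom. Elsewhere the number changed as follows, and the cause was not tested. For BAT over control in day 7 FAPs, where none was called, DESeq2 and edgeR without a filter each called 2. Without a filter 1 was called in the difference of BAT effects at day 7 and 1 in that between days in FAPs. DESeq2 called 2 for the days in control FAPs, against 1. Without the mouse block the pairing was given up, and 6 were called in day 7 BAT muscle between cell types, against 10, and 1 in the BAT interaction of day and cell type, against 3. Without the block no other count moved by over 1.5 times. Leaving out 1 mouse or library gave 0 to 2 for the days in control FAPs, 1 to 4 in BAT FAPs and 1 to 3 in the BAT interaction.

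Changes of sign were found in differences that were not called. Sox9 between cell types in day 7 control muscle (0.00) was 0.022 with DESeq2, 0.000615 with limma voom, 0.0219 with RLE scaling, 0.0197 without the block and -0.118 to 0.147 with 1 mouse left out. In day 3 BAT muscle Snai2 was -0.0282 without a filter and -0.0470 to 0.0670 with 1 mouse left out, and Sox9 was 0.171 without macrophage-rich libraries and -0.250 to 0.171 with 1 mouse left out. Between days Snai1 in BAT satellite cells was -0.0481 with DESeq2, -0.00404 with limma voom, -0.0479 with RLE scaling and -0.0119 without a filter, and with 1 library left out -0.498 to 0.402, or -0.488 to 0.275 in control satellite cells. Sox9 in control FAPs was -0.0169, -0.0312, -0.0169 and -0.00217 under the same 4 settings, and -0.178 to 0.112 with 1 library left out. In BAT FAPs Twist1 was 0.0188 with limma voom, 0.00226 without a filter and -0.185 to 0.146 with 1 library left out, Twist2 -0.0349 with limma voom and -0.134 to 0.193, and Snai1 -0.250 to 0.309. With 1 library left out, Twist2 was -0.000848 to 0.795 in BAT satellite cells and -0.0897 to 0.559 in control FAPs, and Prrx1 -0.140 to 0.0352 in control FAPs. In the BAT interaction Osr2 was -1.73e-05 with DESeq2, and Snai1, Osr1 and Osr2 were -0.213, -0.359 and -0.493 without macrophage-rich libraries. With 1 mouse left out they were -0.213 to 0.246, -0.359 to 0.565 and -0.493 to 0.306, and Twist2 -1.08 to 0.0309.

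The mean within-mouse differences moved by less than 1 SD with a pseudocount of 1 CPM or TMM-adjusted CPM. Twist1 and Twist2 in day 3 satellite cells, at 0 to 21 counts, are limited by depth.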
